A study of Mus musculus with 6 samples.

Results

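The sodium-calcium exchangers are membrane proteins that let sodium run down its gradient and use that energy to move calcium the other way. The 8 exchanger genes examined here are those of the *Slc8* and *Slc24* families named *Slc8a1*, *Slc8a2*, *Slc8a3*, *Slc8b1*, *Slc24a1*, *Slc24a2*, *Slc24a3* and *Slc24a4*. They were taken by symbol from a table of 31169 genes, and all 8 were found and passed the filter on low counts. RNA was sequenced from whole retina of C57BL/6 mice that were 2 months old and had been injected at 1 month into the anterior chamber of the eye. In the microbead group the injection held polystyrene microbeads of 15 μm, which obstruct the outflow of aqueous humor and raised intraocular pressure (IOP) for 4 weeks, and in the saline group it held saline alone. Each group had 3 libraries. The study's methods describe male mice injected in both eyes, and the labels do not say whether retinas of the same animal were used, so the p-values measure the spread between these libraries only. No allele or transgene is named for either group.

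The traffic of calcium across the plasma membrane sets how long a calcium signal lasts in a neuron, and exchangers have the high capacity that the ATP-driven calcium pumps lack. The *Slc8a* genes encode the NCX exchangers, which move sodium against calcium, and *Slc8b1* encodes NCLX, which moves calcium out of the mitochondrial matrix. The *Slc24a* genes encode the NCKX exchangers, which carry potassium out together with calcium and so draw on the gradients of both ions that the Na/K-ATPase builds. NCKX1, from *Slc24a1*, is the exchanger of the rod outer segment, where it removes the calcium that enters through cyclic nucleotide-gated channels. NCKX2, from *Slc24a2*, is found in cones and many neurons. NCKX3 and NCKX4, from *Slc24a3* and *Slc24a4*, are found in brain and other tissues, the retina among them. Because NCX can run in reverse when sodium builds up inside a cell, these exchangers are often discussed with sodium pump failure in nerve and axon injury.

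The sequences just upstream of *Slc24a1* and *Slc24a4* are shown because *Slc24a1* had the highest level of the 8 genes and *Slc24a4* the largest difference between the groups. They are the 250 bases before the RefSeq start of each gene, in GRCm38.p6, written in the direction of transcription. *Slc24a1* lies on the reverse strand, and its window is chr9:64951621-64951870. *Slc24a4* lies on the forward strand, and its window is chr12:102128477-102128726. Capitals mark TAATCC or its reverse complement, the core that the photoreceptor factors CRX and OTX2 are known to bind.
Slc24a1: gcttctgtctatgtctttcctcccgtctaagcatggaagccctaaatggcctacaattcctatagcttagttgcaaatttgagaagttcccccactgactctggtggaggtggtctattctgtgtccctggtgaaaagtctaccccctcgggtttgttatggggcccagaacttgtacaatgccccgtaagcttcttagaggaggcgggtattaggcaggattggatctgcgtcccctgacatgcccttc
Slc24a4: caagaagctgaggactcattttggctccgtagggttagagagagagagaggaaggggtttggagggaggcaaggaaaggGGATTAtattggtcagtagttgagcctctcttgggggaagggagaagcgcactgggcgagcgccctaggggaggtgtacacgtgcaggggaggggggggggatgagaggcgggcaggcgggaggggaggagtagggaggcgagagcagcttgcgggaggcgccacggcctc
The core occurs in the window of *Slc24a4*, starting 171 bases before the start on the reverse strand, and was not matched in that of *Slc24a1*. It was matched in 1 of the 9 windows that RefSeq gives for 7 of the 8 genes, searched over these 250 bases alone, and in 6.25% of all 32851 such windows of the mouse table. TGCTGAC, a site of the rod factor NRL, was searched on both strands as well and was matched in 0 of the 9 windows, against 3.81% of all windows. A match is a description of the sequence alone.

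The saline libraries held between 36085737 and 46481382 counts and the microbead libraries between 13574949 and 19834366, a ratio of 2.40 between the group medians. Levels are given as CPM, counts per 1000000 of a library size scaled by TMM. The smallest count of any exchanger in any library was 94, for *Slc8a1*, with a counting error of 10.3%, and for *Slc24a1* the smallest count was 19341, with a counting error of 0.719%. Mitochondrial genes took 3.35% ± 0.199 of the counts in saline and 9.84% ± 0.880 in microbead libraries (SD, n = 3 each). The names of the libraries fall into a pair of series that split exactly by injection, and what the names mark is not stated, so an effect of that split cannot be told apart from one of the injection. Retinal markers were present throughout: no library had less than 13136 CPM of *Gnat1*, the rod transducin, or less than 65.1 CPM of the cone gene *Arr3*. Lens genes, which mark carry-over from dissection, summed to 241 CPM in saline replicate 3, to 17.8 CPM in saline replicate 1 and to at most 0.332 CPM in the others. The 8 ganglion cell (RGC) markers summed to 327 CPM in saline replicate 1, against 959 and 1236 CPM in the other saline libraries and 823 to 1104 CPM in the microbead libraries. In whole tissue, fewer cells of a type and less RNA per cell cannot be told apart.

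The exchangers differed widely in level. Per kilobase of annotated exon, *Slc24a1* reached 310 ± 32.9 CPM in saline-injected retinas (SD, n = 3), 6.54 times the level of the next gene, *Slc24a3*, at 47.5 ± 11.98. The neuronal NCX gene *Slc8a3* followed at 20.1 ± 2.35, then *Slc24a4* at 11.6 ± 2.03, *Slc24a2* at 7.72 ± 3.02, *Slc8a2* at 5.45 ± 1.53 and the mitochondrial exchanger *Slc8b1* at 3.66 ± 1.51 CPM per kilobase. *Slc8a1*, which encodes NCX1, the exchanger of heart muscle, was lowest at 1.05 ± 0.560 CPM per kilobase. The top 3 genes did not overlap with their neighbours in this order in any saline library, nor did *Slc8a1* with *Slc8b1*. From *Slc24a4* down to *Slc8b1*, each gene overlapped with the next. In microbead-injected retinas the same 3 genes led, at 252 ± 50.5, 36.5 ± 4.22 and 21.4 ± 4.07 CPM per kilobase (SD, n = 3). *Slc24a2*, at 5.60 ± 0.830, and *Slc24a4*, at 5.20 ± 2.64 CPM per kilobase, stood in the reverse order there, and their values overlapped. The plot of levels per length shows the separation of the first 3 genes from the other 5.

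**Figure D1:**
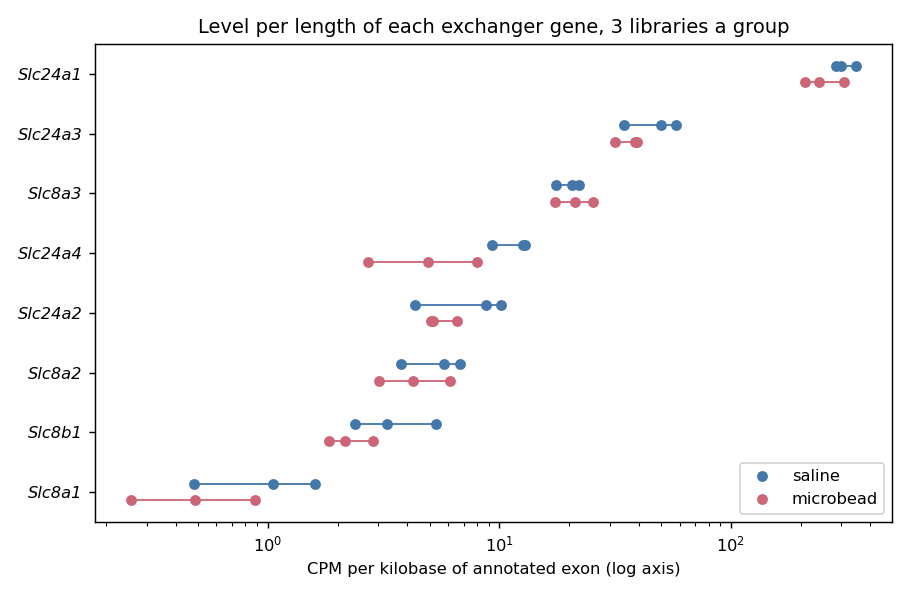
Level of each exchanger gene in CPM per kilobase of annotated exon, on a log axis, with 1 point for each library, a line over the range of each group, saline in blue and microbead in red. *Slc24a1* lies far to the right of the others, between 208 and 347 CPM per kilobase over the 6 libraries, and *Slc8a1* lies at the left, between 0.257 and 1.60.

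The next question was whether IOP elevation went with a difference in the mRNA of the exchangers. None of the 8 genes had an adjusted p-value under 0.05 from edgeR's quasi-likelihood test, that is, 0 were lower and 0 were higher past this threshold, against 6.31% of all 17707 genes tested that were lower and 6.46% that were higher. At an unadjusted p under 0.05, 1 of the 8, *Slc24a4*, was lower, against 16.2% of all genes tested. DESeq2 and limma-voom each had 1 of the 8, also *Slc24a4*, lower at an adjusted p under 0.05, where 8.88% and 5.86% of all genes with an adjusted p were lower. In 7 of the 8 genes the log2 fold change was below 0, as in 52.1% of all genes tested, and the median was -0.42, beside -0.03 over all genes tested. The groups were separate for 1 of the 8 genes, again *Slc24a4*, and for 18.9% of all genes tested with the microbead libraries lower.

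**Figure D2:**
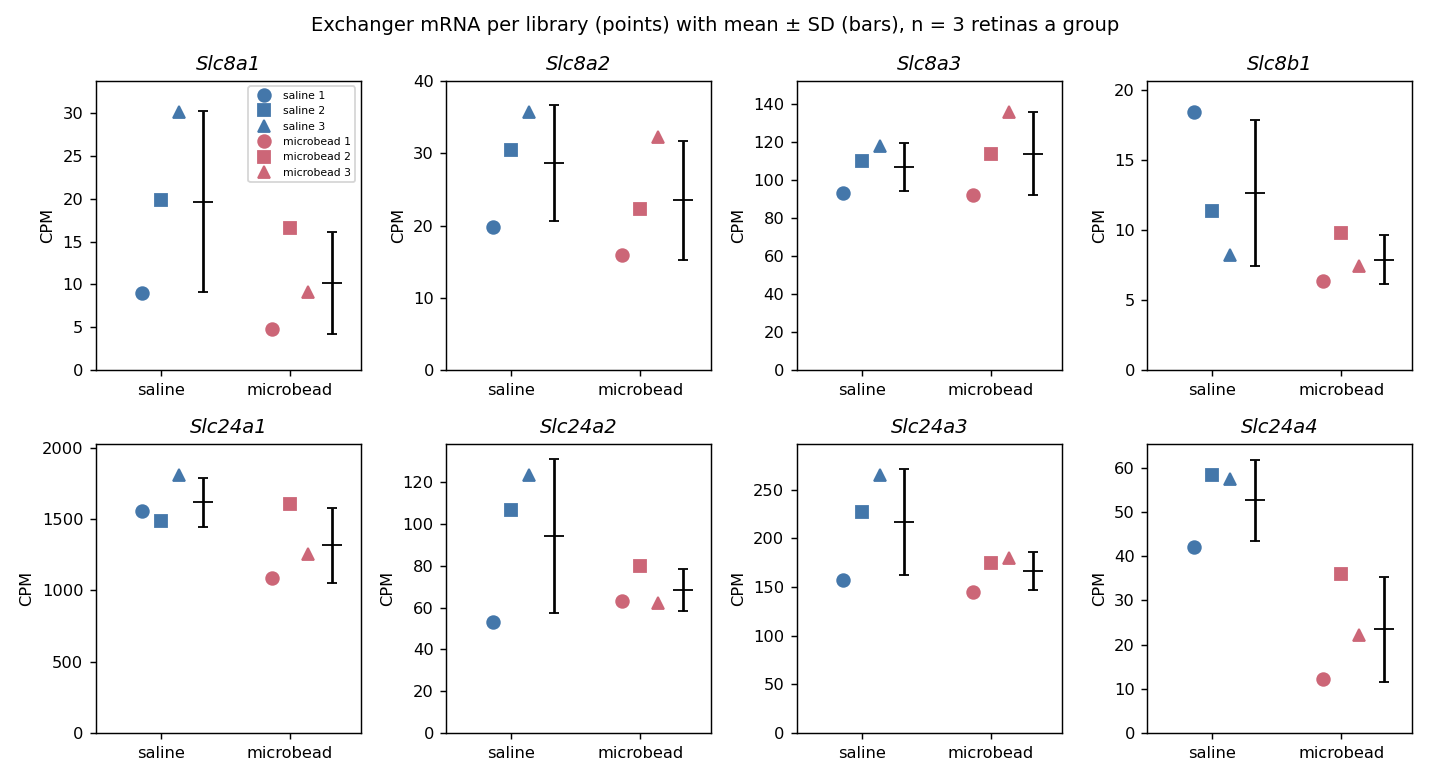
CPM of each exchanger gene in each library, with 1 panel for each gene, circles, squares and triangles for replicates 1, 2 and 3, and bars for the mean ± SD of the 3 libraries of a group, on axes that start at 0. The groups overlap in 7 panels, and in that of *Slc24a4* the microbead libraries, at 12.3 to 36.0 CPM, all lie below the saline libraries, at 42.0 to 58.5 CPM.

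*Slc24a4* (ENSMUSG00000041771.13) lies on the forward strand of chromosome 12 of GRCm38, from 102128733 to 102267091, and its longest coding sequence encodes 622 amino acids. It was measured at 42.0, 58.5 and 57.4 CPM in the saline libraries and at 12.3, 36.0 and 22.2 CPM in the microbead libraries. All microbead values were lower than all saline values, and the spread was wider in the microbead group, where replicate 2 held 2.93 times as much as replicate 1. The means were 52.7 ± 9.20 and 23.5 ± 11.9 CPM (SD, n = 3 each). The log2 fold change was -1.17 (standard error 0.34, 95% interval -1.93 to -0.41, adjusted p = 0.0509 from edgeR), a percent change of -55.5%. This is just outside the threshold of 0.05, and the interval excludes 0 because it is not adjusted for the number of genes. Over 13 other settings with all 6 libraries, the adjusted p ranged from 0.000151 to 0.0587 and was under 0.05 in 9. The log2 fold change stayed between -1.33 and -1.12. The lowest adjusted p came from edgeR with no filter, where the median log2 fold change over all genes was -0.23. The next lowest was 0.00701, from DESeq2. The 4 that were over 0.05 are the 4 that scale the library sizes in another way. Leaving out 1 library at a time gave log2 fold changes between -1.60 and -0.86, and the adjusted p was under 0.05 in 2 of 6 fits, without saline replicate 1 (0.0333) and without microbead replicate 2 (0.0426).

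**Figure D3:**
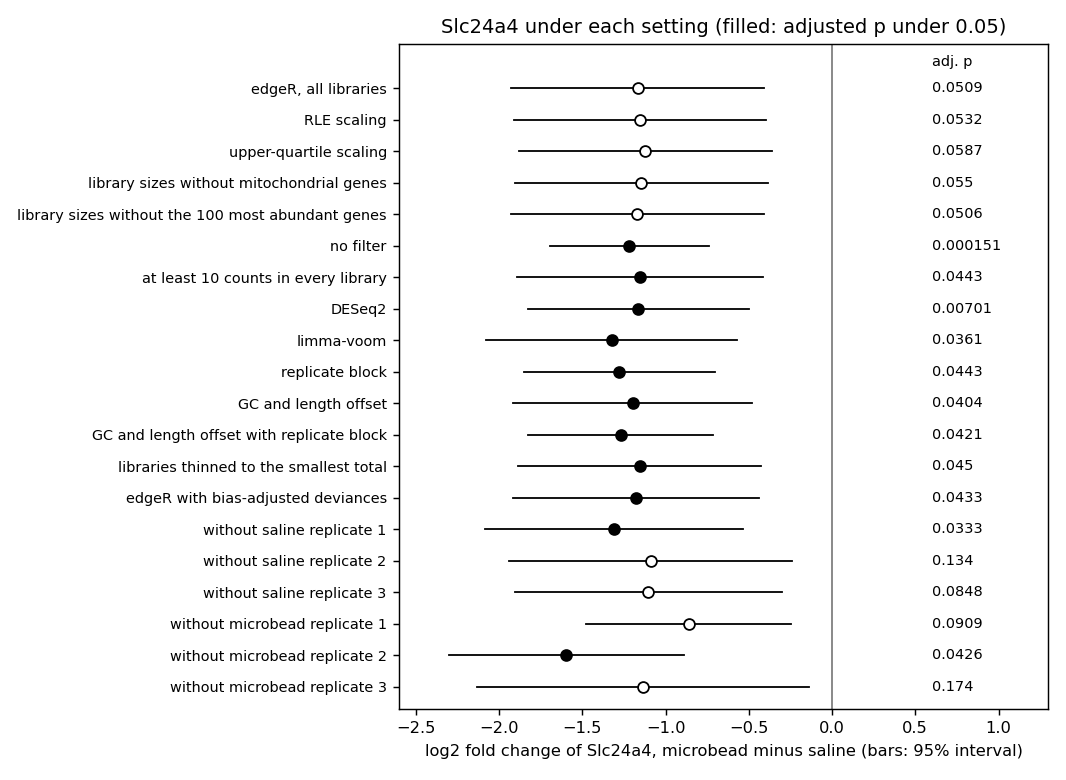
Log2 fold change of *Slc24a4*, microbead minus saline, with its 95% interval under each setting, filled circles where the adjusted p printed at the right is under 0.05. Every interval lies below 0, while the adjusted p falls on both sides of the threshold, from 0.000151 without a filter on low counts to 0.174 without microbead replicate 3.

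The marker sums of endothelial and horizontal cells were also lower in the microbead libraries. The 5 endothelial genes summed to 233 ± 40.0 CPM in saline and 128 ± 23.8 CPM in microbead libraries (SD, n = 3 each). Of these, 3 of the 5 were lower past edgeR's threshold. The 4 horizontal cell genes summed to 120 ± 26.5 and 73.1 ± 19.5 CPM (SD, n = 3 each), with 1 of the 4 lower, against 6.31% of all genes tested. In both sums the microbead libraries were all below the saline libraries, as in 18.9% of all genes tested. The lens sum was also separate, but only just, at 0.332 CPM in saline replicate 2 and 0.309 CPM in microbead replicate 1. In these libraries 3 counts are 0.0645 and 0.151 CPM, and 0 lens genes were tested. All other marker sums overlapped between the groups, among them that of the 8 cone genes, at 1224 ± 131 and 1292 ± 99.3 CPM (SD, n = 3 each). Among the microbead libraries the horizontal cell sum was highest in replicate 1, at 93.0 CPM, where *Slc24a4* was lowest, at 12.3 CPM. The endothelial sum was highest in replicate 2, at 155 CPM, where *Slc24a4* was highest, at 36.0 CPM. It was 118 CPM in replicate 1 and 111 CPM in replicate 3. Of the defining markers, the lowest value of the endothelial *Cldn5* was 15.0 CPM, while the horizontal cell gene *Onecut1* ran from 0.103 to 3.17 CPM. Their part in the values of *Slc24a4* was not tested.

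*Slc24a1* (ENSMUSG00000034452.7), on the reverse strand of chromosome 9 from 64922861 to 64951607, encodes 1130 amino acids from a single annotated transcript. The rod exchanger was at 1558, 1483 and 1811 CPM in saline and at 1087, 1603 and 1256 CPM in microbead libraries. Microbead replicate 2 lay among the saline values and the other 2 microbead libraries below them. The log2 fold change was -0.30 (95% interval -0.75 to 0.15, adjusted p = 0.340 from edgeR), so a fold between 0.596 and 1.11 of the saline level fits the data. The 8 rod markers summed to 70246 ± 11476 CPM in saline and 63177 ± 7126 CPM in microbead libraries (SD, n = 3 each). *Slc24a1* alone amounted to 2.32% ± 0.128 of this rod sum in saline and 2.13% ± 0.664 in microbead libraries (SD, n = 3 each). Microbead replicate 2, with the lowest rod sum at 55453 CPM, held the highest *Slc24a1* of its group.

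*Slc24a2*, which encodes NCKX2, was at 52.9, 107 and 124 CPM in saline and at 63.0, 80.1 and 62.0 CPM in microbead libraries. Saline replicate 1 was the lowest of all 6 libraries, and the groups overlapped through it alone. The log2 fold change was -0.46 (95% interval -1.11 to 0.18, adjusted p = 0.300 from edgeR). Without saline replicate 1, which is also the library with the low RGC marker sum, it was -0.75 with an adjusted p of 0.0368, and without saline replicate 3 it was -0.23. The 8 cone markers summed to 1224 ± 131 CPM in saline and 1292 ± 99.3 CPM in microbead libraries (SD, n = 3 each), and the groups overlapped. Of this cone sum, *Slc24a2* amounted to 4.15%, 9.91% and 9.33% in saline and to 4.58%, 6.09% and 5.24% in microbead libraries. The part of the ganglion cell markers in these values was not tested.

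*Slc24a3*, which encodes the NCKX3 of brain and smooth muscle, was the most abundant NCKX gene after *Slc24a1*. It was at 158, 227 and 265 CPM in saline and at 144, 175 and 180 CPM in microbead libraries. Saline replicate 1 lay within the microbead range and the other 2 saline libraries above it. The log2 fold change was -0.38 (95% interval -0.86 to 0.10, adjusted p = 0.261 from edgeR), and it was -0.57 without saline replicate 1 and -0.21 without saline replicate 3.

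Among the NCX genes, *Slc8a3*, which encodes the NCX3 of brain and skeletal muscle, was at 93.2, 110 and 118 CPM in saline and at 92.3, 113 and 136 CPM in microbead libraries. Its groups overlapped, with a highest library 1.26 times the lowest in saline and 1.47 times in microbead retinas. Its log2 fold change of 0.09 was the closest to 0 and had the narrowest interval of the 8 genes (-0.34 to 0.52, adjusted p = 0.789 from edgeR), which bounds the microbead level between 0.790 and 1.43 times the saline level. It was -0.07 without microbead replicate 3. *Slc8a2*, which encodes the neuronal NCX2, was at 19.9, 30.5 and 35.7 CPM in saline and at 16.0, 22.3 and 32.2 CPM in microbead libraries, which overlapped (log2 fold change -0.29, 95% interval -0.95 to 0.37, adjusted p = 0.538 from edgeR).

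*Slc8a1* was the most variable of the exchangers, at 9.03, 19.9 and 30.1 CPM in saline and at 4.84, 16.5 and 9.09 CPM in microbead libraries. Within each group the highest library held over 3 times the lowest, 3.33 times in saline and 3.42 times in microbead retinas. The log2 fold change of -0.96 was second to that of *Slc24a4* in size, but its interval ran from -2.06 to 0.14 (adjusted p = 0.215 from edgeR). Over the 13 settings the adjusted p was under 0.05 in 1, from edgeR without the filter on low counts (0.0158). In that fit the standard error was 0.30, against 0.49 with the filter. With each library left out the log2 fold change lay between -1.49 and -0.52. Exons of *Slc8a1* overlap annotated exons of 2 genes on the opposite strand. The libraries were stranded, but whether the counting used the strand is not given in the sources used here, so reads of these genes cannot be told apart there.

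*Slc8b1*, the mitochondrial exchanger, was at 18.5, 11.4 and 8.25 CPM in saline and at 6.38, 9.82 and 7.47 CPM in microbead libraries. Here saline replicate 1 was the highest library, whereas it was the lowest saline library for 6 of the other genes. The log2 fold change was -0.69 (95% interval -1.42 to 0.04, adjusted p = 0.180 from edgeR), and it was -0.32 without saline replicate 1. The plot of log2 fold changes sets the 8 intervals side by side.

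**Figure D4:**
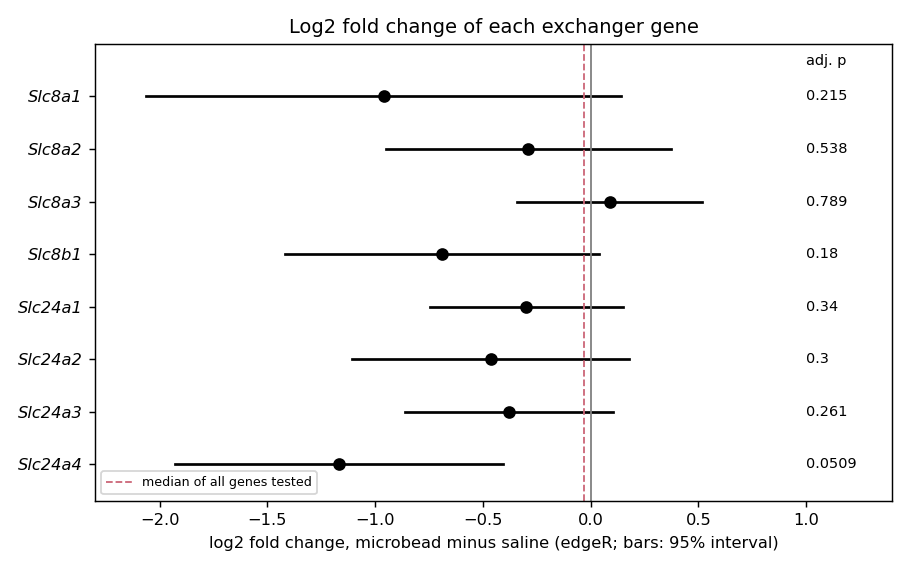
Log2 fold change of each exchanger gene, microbead minus saline, from edgeR, with its 95% interval as a bar and the adjusted p at the right, and the median of all genes tested as a dashed line at -0.03. The interval of *Slc24a4* is the 1 of 8 that lies below 0, and those of the other 7 genes include 0.

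Single libraries stood at the end of their group for several exchangers. Saline replicate 1 was the lowest of its group for 6 of the 8 genes and saline replicate 3 the highest for 6. Microbead replicate 1 was the lowest of its group for 7. The same shares over all genes tested were not counted, so these counts cannot be read as particular to the exchangers. Saline replicate 3 is the library with the lens genes, and it also held the largest pigment epithelium marker sum, 125 CPM, against 6.14 to 55.8 CPM in the others. The part of these tissues in the exchanger values was not tested.

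Within the families, the make-up was described by shares of the summed CPM per kilobase of exon, with no test. *Slc24a1* made up 82.4% ± 3.29 of the NCKX sum in saline and 84.1% ± 1.17 in microbead retinas, and *Slc24a4* made up 3.09% ± 0.490 and 1.66% ± 0.557 (SD, n = 3 each). With *Slc24a1* set aside, *Slc24a4* was 19.3%, 18.1% and 15.7% of the remaining NCKX sum in the saline libraries and 6.88%, 15.1% and 9.92% in the microbead libraries. The groups did not overlap in this share, although saline replicate 3 and microbead replicate 2 lay close together. *Slc24a3* made up 69.6% to 71.8% of the remainder in saline and 72.5% to 80.1% in microbead libraries. These values did not overlap, whereas the same share of the plain CPM did, at 57.9% to 62.4% and 60.1% to 68.1%. Shares of a sum are bound together, so a lower share of *Slc24a4* goes with a higher share of the remaining genes. The level of *Slc24a3* itself was not higher in microbead libraries (log2 fold change -0.38). In the NCX sum, *Slc8a3* made up 76.0% ± 4.05 in saline and 81.3% ± 2.41 in microbead retinas and *Slc8a1* 3.77% ± 1.52 and 2.03% ± 1.13 (SD, n = 3 each), and the groups overlapped. The sums themselves overlapped between the groups, at 26.6 ± 4.44 and 26.4 ± 5.73 CPM per kilobase for NCX and at 377 ± 44.6 and 299.6 ± 56.7 for NCKX (SD, n = 3 each).

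**Figure D5:**
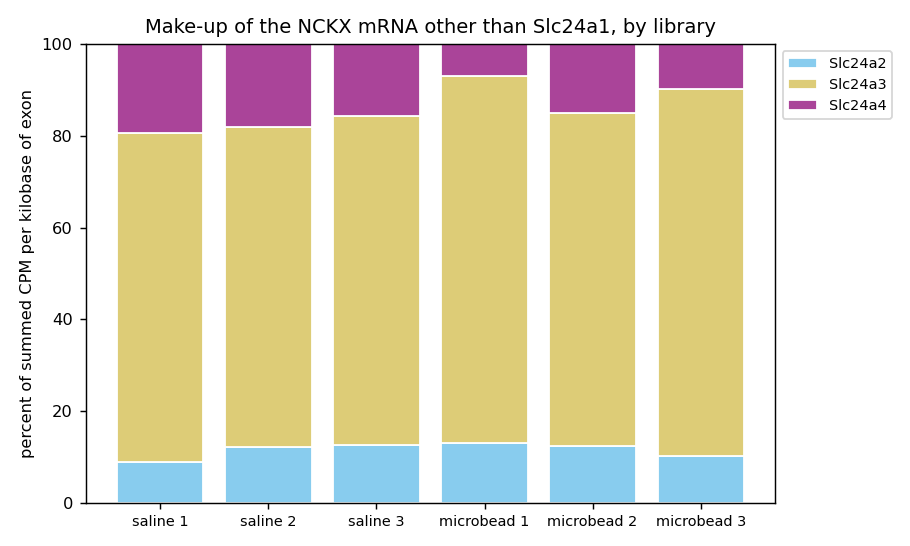
Percent of the summed CPM per kilobase of exon of *Slc24a2*, *Slc24a3* and *Slc24a4* that each gene makes up, as stacked bars for each of the 6 libraries. The top segment, *Slc24a4*, is 15.7% to 19.3% in the saline libraries and 6.88% to 15.1% in the microbead libraries.

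The exchangers work beside other calcium-handling proteins, of which 6 lists with 44 genes were examined in the same fit, and 42 of the genes were tested. Of these, 1 was higher and 2 were lower past edgeR's threshold, counts no larger than the 6.46% and 6.31% of all genes would give, and the median log2 fold change was -0.31. The 3 genes belong to the stores of the endoplasmic reticulum. *Atp2a2*, the SERCA2 pump that fills the store, fell from 281, 389 and 510 to 219, 237 and 215 CPM (log2 fold change -0.82, adjusted p = 0.0438 from edgeR). *Itpr2*, a release channel opened by inositol trisphosphate, fell by 0.70 on the log2 scale (adjusted p = 0.0482 from edgeR). *Ryr1*, a ryanodine receptor best known from skeletal muscle, rose from 1.75, 2.36 and 0.799 to 3.91, 6.64 and 6.82 CPM (log2 fold change 1.81, adjusted p = 0.0325 from edgeR). Leaving out 1 library at a time, these were past the threshold in 1, 0 and 2 of 6 fits. *Atp2a1*, the pump of fast muscle, had a log2 fold change of 1.20 with an interval of -0.66 to 3.07.

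The other 5 lists had 0 genes past edgeR's adjusted threshold. The cyclic nucleotide-gated channels are the calcium entry of photoreceptors, which NCKX1 balances in rods. All 4 listed subunits had log2 fold changes below 0, as had 52.1% of all genes tested. The largest were -0.62 for the rod subunit *Cnga1* (adjusted p = 0.0941 from edgeR) and -0.24 for the cone subunit *Cngb3*. The intervals of the subunits other than *Cnga1* included 0. Of the plasma membrane calcium pumps, which export calcium beside the exchangers, *Atp2b3* was at -0.60 and *Atp2b4* at -0.50. Among the 7 genes tested of mitochondrial calcium uptake, the entry that *Slc8b1* balances, *Letm1* had the largest difference, at -0.48. Of the photoreceptor calcium sensors and their targets, the guanylate cyclase *Gucy2f* was at -0.88 and the photoreceptor kinase *Grk1* at -0.79. Of the sodium-proton exchangers, which also run on the sodium gradient, *Slc9a7* was at -1.80 (adjusted p = 0.0549 from edgeR) and *Slc9a5* at 0.85 (adjusted p = 0.0594 from edgeR). Of the 28 genes tested in these 5 lists, 7 were lower and 2 higher at an unadjusted p under 0.05, against 16.2% and 15.3% of all genes tested. At an adjusted p under 0.05, DESeq2 had 4 lower and 1 higher, against 8.88% and 8.98% of all genes, and limma-voom 1 lower and 0 higher, against 5.86% and 6.62%.

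The genes with the profile most like that of *Slc24a1* over the 6 libraries were *Mpdz*, *Dmxl2* and *Fhod3*, out of 11842 genes with a mean of at least 5 CPM. Likeness was the root mean square difference between log2 CPM profiles centred on the mean of each gene, which was 0.0748, 0.0760 and 0.0768 for these 3. Their log2 fold changes were -0.22, -0.31 and -0.20, and each had its lowest value in microbead replicate 1, as *Slc24a1* had. Such likeness comes with the choice of these genes by profile over the same libraries.

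Transcripts of the exchangers were compared with those of other annotated genes in the direction of transcription alone. The overlap of *Slc8a1* exons with genes on the opposite strand, given above, is not covered by this comparison. In GENCODE vM21, 0% of the 100-base stretches of the transcripts of any of the 8 genes occur in transcripts of another locus. Of stretches of 31 bases, 2.78% of *Slc8b1* and at most 0.352% of each of the other genes do. The annotated exons of *Slc8a1* span 18807 bases in all and those of *Slc8b1* 3463.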

How the data were processed

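Libraries of poly(A) RNA, 1 for each retina sample, were read as 100-base pairs. The authors aligned the reads with STAR 2.5.3a to GRCm38.p5 with GENCODE vM12, counted them per gene with featureCounts 1.15.2 and deposited the counts of each library without normalization. The deposited table also holds the comparison that the authors made with DESeq2 1.14, as a mean signal of normalized counts, a log2 fold change, a linear fold change (a ratio), a p-value with its adjusted value and a mark of calls, none of which was used here. How reads with several places were treated is not given in the sources used here.

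With filterByExpr at a minimum count of 10 and a minimum total of 15, 17707 genes were kept and compared without a block in R 4.3.3 with edgeR 4.0.16 (quasi-likelihood test), with TMM scaling, two-sided, Benjamini-Hochberg adjustment over all genes tested and a threshold of 0.05. Intervals of 95% follow from the F statistic and cover 1 gene at a time. Exon lengths and positions are from GENCODE vM21 of the same build, which holds 99.6% of the tested genes, and promoters from RefSeq. At the depths of 13574949 to 46481382 counts per library, 3 counts correspond to 0.0645 to 0.221 CPM, counting error only. Alternatives included DESeq2 1.42.0 and limma-voom (limma 3.58.1). The steps were tested on simulated data. The lowest chi-square per degree of freedom between libraries of 1 group was 22.0, so none was counted as a copy of another.

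The members, the lists and the rule for named genes were chosen with earlier results of these data known. Named are all 8 exchangers, of each list the 2 genes with the largest difference and those past the threshold, and the 3 genes with the profile closest to the exchanger of the highest level or to any exchanger past the threshold. Some genes that this rule would name are not reported here. The motifs were chosen after the values were seen, as was the edgeR fit with bias-adjusted deviances.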

Additional observations from a re-analysis of the deposited data

How the results depend on the processing

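With 3 retinas a group, 7 of the 8 exchangers have intervals that include 0. The 160 fits of all 8 exchangers under other settings kept the direction and the side of the threshold in 145. They went past it in 13 and turned direction in 2. Of the 13, 9 were of *Slc24a4* with all libraries and 2 of *Slc24a4* with 1 library left out. The rest were *Slc8a1* with no filter and *Slc24a2* without saline replicate 1. The 2 that turned were both of *Slc8a3*. Its log2 fold change was -0.0661 without microbead replicate 3, -0.0050 without saline replicate 1 and up to 0.21 with another left out. The count of exchangers lower past the threshold was 0 here. It was 1 with DESeq2, limma-voom, at least 10 counts in every library and libraries thinned to the smallest total. It was also 1 with bias-adjusted deviances (chosen after seeing the data), the offset for GC content and length, and that offset with the block. With no filter it was 2, in a fit that had 2209 genes lower and 1511 higher over all genes. The median log2 fold change over all genes of that fit was -0.23, against -0.03 with the filter. With each library left out the count was 0 to 2, and 0 exchangers were higher in every fit.

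Whether the replicate numbers pair the retinas is not stated. Deviations of same-numbered libraries from their group means correlated at -0.0351, 0.136 and 0.00997, and not every library correlated best with its own number. With so few libraries a group, such correlations cannot decide whether retinas were paired. With the replicate block, 1 exchanger was lower, 0 list genes were higher and 1 lower, and over all genes 480 were higher and 425 lower, against 1143 and 1118 without it. With the GC and length offset and the block these were 496 and 213.

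Over all genes, DESeq2 gave 1821 higher and 1800 lower and no filter 1511 and 2209; an adjusted p under 0.01 left 55 and 32. The number was lowest without microbead replicate 3 and highest without saline replicate 1, with 26 to 1356 higher and 20 to 1265 lower. In the calcium-handling lists, 1 higher and 2 lower here became 3 and 6 with DESeq2 and with no filter, 3 and 1 with the GC and length offset, 1 and 1 with that offset and the block, 0 and 0 at 0.01, 1 and 0 with upper-quartile scaling, 1 lower with RLE, thinning, limma-voom and sizes without mitochondrial genes, and 0 to 2 and 0 to 3 with each library left out. The causes were not tested.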
